A study of Mus musculus with 2 samples.

Results

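The 8 Kruppel-like factor genes Klf2, Klf4, Klf5, Klf6, Klf9, Klf10, Klf13 and Klf15 were followed across cell classes of the mouse testis in 2 single-cell RNA libraries. They were taken by name from the columns of both count tables, and all 8 were among the 41061 genes with a count. The other Kruppel-like factor genes with a column numbered 9 and are used for comparison only. One library came from mice aged 2 months, called young here, and 1 from mice aged 24 months, called aged. The labels give no strain, genotype or number of mice, and name no treatment other than the Avertin anaesthesia that all the animals received. The question set by the title of the study is how the expression profile of testicular cells differs between the ages. Cells were captured on the BD Rhapsody system, in which cells and barcoded beads share microwells. Although stroma cells is the label, germ cell markers were carried by most of the cells analysed.

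After filtering, 2732 young and 5691 aged cells were analysed, with medians of 15649.5 and 11381 counts per cell. Clusters were named from marker genes, and 75 young and 1157 aged cells stayed unnamed. Leydig-like cells numbered 1087 young and 576 aged, spermatocyte-like cells 659 and 2291, round spermatid-like cells 581 and 970, macrophage-like cells 173 and 130, fibroblast-like cells 17 and 130, and elongating spermatid-like cells 135 and 313. Levels are given in CPM. For this the counts of all cells of a class were added up within each library and scaled to 1000000. Levels carry exact Poisson 95% intervals, in parentheses. Ratios are aged over young with exact conditional binomial 95% intervals, and shares carry exact Clopper-Pearson intervals. All these intervals cover counting error only. With 1 library per age no difference between ages has a replicate check, no test was possible, and age cannot be told apart from library. A member is called higher or lower by size alone, at 1.5-fold or more with at least 10 counts over both libraries. Since the count tables give no level per length of transcript, levels are compared within a gene and never between genes.

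Kruppel-like factors are zinc-finger transcription factors that bind GC-rich and CACCC sequences, and members either activate or repress their targets. Klf2 is known for keeping endothelial cells and T cells quiescent and for restraining inflammatory genes in macrophages. Klf4 is known as a reprogramming factor and, in the mouse testis, as a gene of postmeiotic germ cells and Sertoli cells. Klf9, Klf13 and Klf10 repress through the Sin3a corepressor, Klf9 and Klf15 are induced by glucocorticoids, and Klf10 was named as an early gene of TGF-beta signalling.

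Promoters of Klf2, Klf4 and Klf6 are shown because these genes carry the main patterns: among germ cells Klf4 and Klf2 were highest in round spermatids, and Klf2 and Klf6 were both higher in aged Leydig-like cells. The sequences are from RefSeq (build GRCm38.p6) and run from 250 bases before to 50 bases after the RefSeq start of the gene. That start differs by some bases from the GENCODE start of the same gene given further below. The sequences are written 5′ to 3′ on the strand of the gene. They lie at chr8:72318812-72319111 (plus strand) for Klf2, chr4:55532426-55532725 (minus strand) for Klf4 and chr13:5861239-5861538 (plus strand) for Klf6. Capitals mark matches on either strand to a GC box spelled GGGCGG, to the CACCC box spelled CCACCC, to the CCAAT box or to the MEF2 consensus.
Klf2: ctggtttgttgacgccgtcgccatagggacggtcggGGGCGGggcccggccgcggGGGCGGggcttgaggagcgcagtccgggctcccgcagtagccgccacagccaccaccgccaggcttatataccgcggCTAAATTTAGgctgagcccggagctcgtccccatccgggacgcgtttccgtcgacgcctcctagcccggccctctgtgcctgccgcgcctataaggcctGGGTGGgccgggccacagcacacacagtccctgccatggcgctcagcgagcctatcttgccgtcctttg
Klf4: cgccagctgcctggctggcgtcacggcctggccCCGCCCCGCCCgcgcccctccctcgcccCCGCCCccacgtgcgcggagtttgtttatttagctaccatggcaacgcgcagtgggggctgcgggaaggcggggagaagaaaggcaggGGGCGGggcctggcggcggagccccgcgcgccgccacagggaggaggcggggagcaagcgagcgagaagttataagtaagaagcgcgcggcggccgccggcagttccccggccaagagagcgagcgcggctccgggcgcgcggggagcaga
Klf6: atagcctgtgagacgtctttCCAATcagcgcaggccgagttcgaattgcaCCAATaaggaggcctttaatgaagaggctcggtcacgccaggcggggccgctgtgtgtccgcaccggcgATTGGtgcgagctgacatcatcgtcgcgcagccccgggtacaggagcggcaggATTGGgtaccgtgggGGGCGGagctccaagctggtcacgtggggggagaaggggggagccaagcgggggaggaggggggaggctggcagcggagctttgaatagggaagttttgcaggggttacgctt

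The Klf2 promoter held 2 GC boxes, 1 CACCC box and 1 MEF2 match, which begins 118 bases before the RefSeq start. The Klf4 promoter held 4 GC boxes, 2 of them overlapping by 1 base, and no CCAAT box. The Klf6 promoter held 4 CCAAT boxes and 1 GC box. Among the 32851 promoters of the same length in the RefSeq table, 35.7% held a GC box, 31.5% a CACCC box, 37.4% a CCAAT box and 3.19% a MEF2 match. These matches describe the letters only. Promoters of 6 of the 8 members were in that table, with none for Klf5 and Klf10.

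In germ cells, Klf4, Klf2, Klf5 and Klf9 differed by stage, and each had a similar course at both ages. The clusters were formed from both libraries jointly, and members were not left out of the choice of variable genes. The courses and their likeness between ages are therefore not independent of the clustering, and cluster 10 was led by Klf5 itself. Clusters were put in order by markers of meiosis that do not include any member: the summed level of 12 spermatocyte markers was lower at each step from cluster 13 through 3, 6, 7, 0, 11, 12, 8 and 10, from 5631 to 284 CPM in the young and from 6315 to 331 CPM in the aged library. The first 5 of these clusters were spermatocyte-like and the next 4 round spermatid-like. Clusters 5 and 9 followed by their elongating spermatid markers, summed to 48482 and 158732 CPM in the young library. Cluster 9 is elongating spermatid-like, and cluster 5 (74 young and 466 aged cells) stayed unnamed because its aged cells were shallow and none of its own markers was among its 10 leading genes. Clusters 4 (563 cells) and 16 (109 cells), both of the aged library only, stayed unnamed by the same rule. They scored best for spermatocyte and round spermatid markers, in that order, and were not placed in the series.

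Klf9, a hormone-responsive repressor, was the only one of these 4 members with a substantial level in the spermatocyte-like clusters. Its young level was 15.3 CPM (4.18 to 39.3, on 4 counts) in cluster 13, 9.37 in cluster 3, 22.6 in cluster 6, 39.1 in cluster 7 and 93.9 (88.6 to 99.3) in cluster 0. The aged values in the same order were 9.37, 12.1, 18.4, 38.8 and 95.9 CPM (90.3 to 102). From cluster 3 to cluster 0 the level was higher at each step in both libraries, and the last spermatocyte-like cluster already matched the first round spermatid-like one within the intervals. Among the ordered clusters Klf9 was highest in cluster 10, at 145 CPM (133 to 158) young and 163 (151 to 176) aged. It was down to 22.0 (16.2 to 29.2) and 20.1 CPM (13.3 to 29.0) in cluster 9. The unnamed aged cluster 16, outside the series, was at 182 CPM (123 to 259) on 30 counts.

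Klf4 was low in spermatocyte-like cells and high in round spermatids. It stood between 2.49 and 11.5 CPM in the 5 spermatocyte-like clusters of both libraries. In cluster 11, the first of the round spermatids, it was 242 CPM (226 to 259) young and 221 (205 to 237) aged. It was higher again at each of the next 3 clusters, with 378, 514 and 557 CPM in the young and 389, 504 and 573 CPM in the aged library. Cluster 5 was still at 449 and 439 CPM, while cluster 9 was at 10.6 (6.69 to 15.8) and 10.0 CPM (5.49 to 16.9). Of the unnamed aged clusters outside the series, cluster 4 was at 30.3 CPM (17.7 to 48.6) and cluster 16 at 200 CPM (138 to 281). The median round spermatid held 12 young and 6 aged Klf4 counts. With each cell thinned to 1000 counts, 35.6% of young (31.7 to 39.7) and 33.9% of aged round spermatids (30.9 to 37.0) had a Klf4 count, against 0.455% and 0.623% of spermatocytes. Without thinning these shares of round spermatids were 99.7% and 94.0%.

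Klf2 appeared at the same step as Klf4 and peaked earlier. It was at most 3.83 CPM in the spermatocyte-like clusters of either library. In the young library it was 70.4 CPM in cluster 11, 112 (104 to 122) in cluster 12, 95.5 in cluster 8 and 62.6 (54.9 to 71.1) in cluster 10. The aged values were 68.4, 106 (94.6 to 119), 93.5 and 61.7 CPM (54.2 to 70.0). Klf2 was thus highest in cluster 12 in both libraries, although the intervals of clusters 12 and 8 overlap, while Klf4 was highest 2 clusters later.

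Klf5, known from trophoblast and gut epithelium, came later than both. It was under 1.5 CPM in all spermatocyte-like clusters, and 2.28 and 3.20 CPM in cluster 11. It reached 23.8 (19.7 to 28.5) and 23.9 CPM (19.9 to 28.5) in cluster 8 and 167 (154 to 181) and 194 CPM (180 to 208) in cluster 10. Cluster 5 was at 155 and 143 CPM. Klf17, a Kruppel-like factor gene outside the 8, had a like course, with 20.98 and 23.6 CPM in cluster 8 and 115 and 100.4 CPM in cluster 10.

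**Figure D1:**
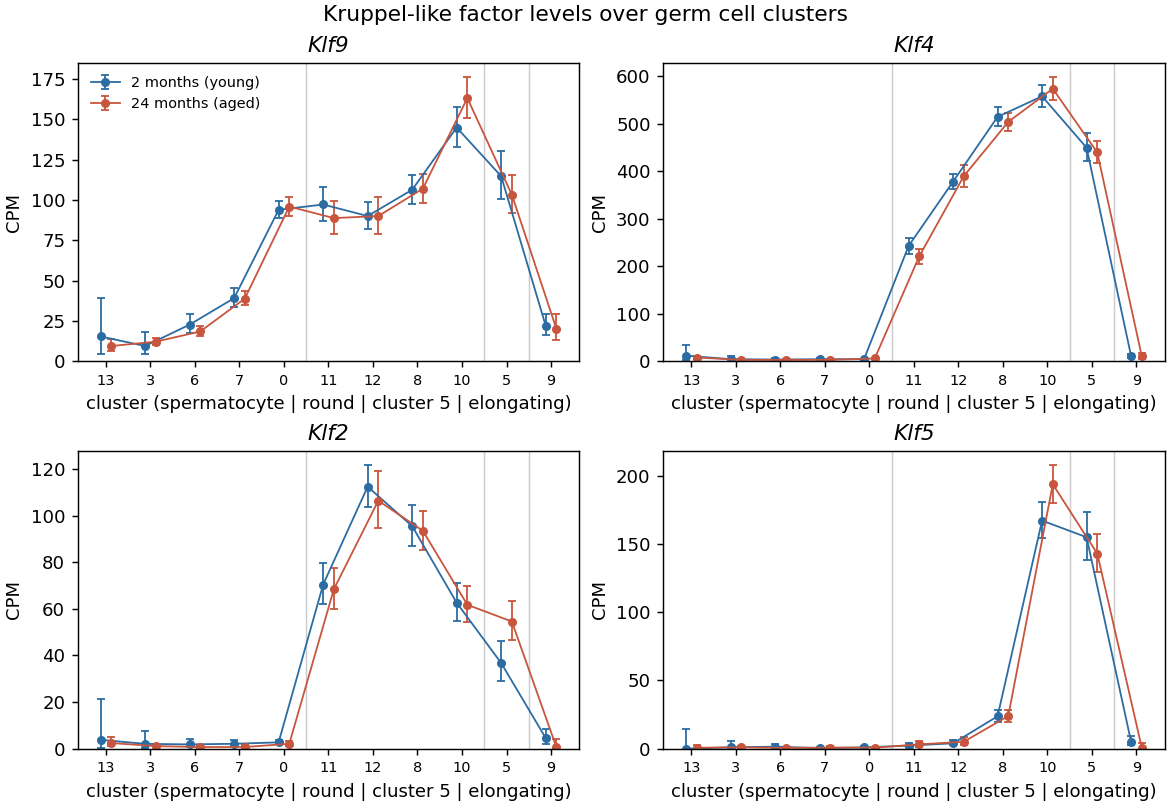
Level of Klf9, Klf4, Klf2 and Klf5 (CPM, linear axes from 0) in 11 germ cell clusters placed in the order of their stage markers; points are 1 library each and bars are exact Poisson 95% intervals. Klf9 is already at 93.9 and 95.9 CPM in cluster 0, Klf4 and Klf2 are first high in cluster 11, and Klf5 is first high in cluster 10, with the young and aged points close together.

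The remaining members were low in germ cells. Klf10 was between 4.51 and 12.8 CPM in the spermatocyte-like clusters and at most 4.84 CPM in the round spermatid-like ones. Klf13 was highest in cluster 0, at 6.96 (5.59 to 8.57) and 6.36 CPM (4.98 to 8.01). Klf6 had 22 and 23 counts over all spermatocyte-like cells and none in elongating spermatid-like cells, where 3 counts would be 1.38 CPM young and 2.15 CPM aged. Klf15 was at most 0.918 CPM in the 3 germ classes compared. The 72 spermatogonia-like cells, all of the aged library, held 14 Klf4, 12 Klf9 and 12 Klf10 counts. In them Klf4 was at 65.7 CPM (35.9 to 110), and Klf9 and Klf10 were each at 56.3 CPM (29.1 to 98.3).

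Between the ages, the levels of well-counted members matched closely within the ordered germ cell clusters. Among 26 pairs of a member and a germ cluster with at least 100 counts, the aged over young ratio had a median of 0.989 and lay between 0.812 and 1.86, the highest being Klf10 in cluster 3 on 6 young counts. In 3 of these 26 the interval of the ratio did not contain 1: Klf2 in cluster 5 (1.48, 1.12 to 1.98), Klf5 in cluster 10 (1.16, 1.04 to 1.29) and Klf9 in cluster 10 (1.13, 1.004 to 1.26). Cluster 13, with 12 young cells, was not among them. Pairs with fewer counts were left out, and some of those went beyond 1.5-fold, in either direction. Pooled over the round spermatid-like clusters, none of the 8 members was 1.5-fold higher or lower, while 8.09% of 19706 genes were higher and 8.54% lower. Klf4 was at 428 (419 to 438) and 438 CPM (427 to 448), a ratio of 1.02 (0.989 to 1.06). Klf2 was at 88.5 and 82.0 CPM, and Klf5 at 44.5 and 59.6 CPM (ratio 1.34, 1.21 to 1.47).

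Pooled spermatocyte-like cells gave another picture, with none of 7 members higher and 4 lower (Klf2, Klf6, Klf9 and Klf13), where 18.3% of 19623 genes were higher and 14.0% lower. Klf9 was at 68.1 CPM (64.6 to 71.6) young and 42.6 (40.6 to 44.7) aged, 1.60-fold lower (1.49 to 1.71). Within the clusters its ratio was 1.02 in cluster 0, 0.993 in cluster 7, 0.812 in cluster 6 and 1.29 in cluster 3. Cluster 0, where Klf9 was highest among spermatocytes, held 414 of the 659 spermatocyte-like cells of the young and 703 of the 2291 of the aged library. Klf13 was at 5.22 and 3.22 CPM, and within cluster 0 its ratio was 0.914. Klf2 was at 2.47 and 1.33 CPM and Klf6 at 1.03 and 0.579 CPM, on 22 to 53 counts per library. Leydig markers in spermatocyte-like cells stood at 0.942% of their Leydig-like level when young and 1.08% when aged. At that percentage the Leydig-like level of Klf2 would carry 1.04 and 3.70 CPM and that of Klf6 1.02 and 3.91 CPM, which is more than was measured in the aged cells for either gene. The part of such RNA in these low values was not tested. Of 20 immediate early and handling response genes measured in the class, 13 were lower and 1 higher.

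Of 4 members with 10 counts in elongating spermatid-like cells, none was higher and Klf2 and Klf5 were lower, where 11% of 10385 genes were higher and 17.6% lower. Klf2 had 10 young counts and 1 aged count, and Klf5 had 11 and 1. Klf2 was 6.40-fold lower with an interval from 0.910 to 278, and its direction and that of Klf5 turned under several alternatives.

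**Figure D2:**
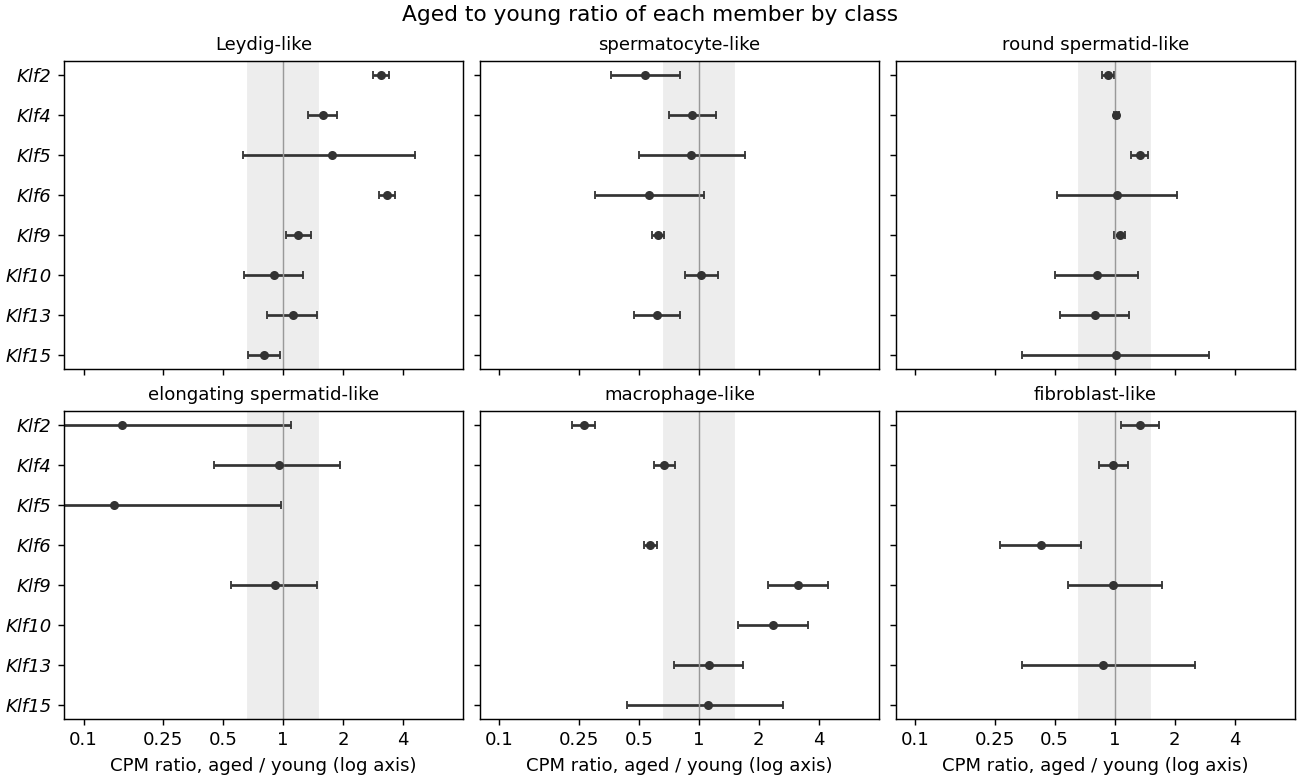
Ratio of CPM, aged over young (log axis), for each member with at least 10 counts in a class; bars are exact 95% intervals for counting error, grey marks less than 1.5-fold, and 2 intervals of elongating spermatid-like cells run past the left edge. Klf2 and Klf6 stand right of the grey band in Leydig-like and left of it in macrophage-like cells, and all points of round spermatid-like cells lie within it.

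Leydig cells lie between the seminiferous tubules and make androgen. In Leydig-like cells 4 of the 8 members were higher in the aged library and none was lower, where 10.5% of 15285 genes were higher and 15.4% lower. Klf2 was at 110.4 CPM (103 to 118) young and 342 (321 to 364) aged, 3.10-fold higher (2.82 to 3.40). Klf6, a factor known to promote inflammatory genes in macrophages, was at 108 (101 to 116) and 361 CPM (339 to 384), 3.33-fold higher (3.04 to 3.65). The aged interval lay far above the young one for both genes.

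Klf4 was at 51.8 (46.9 to 57.1) and 82.0 CPM (71.7 to 93.4), a ratio of 1.58 (1.34 to 1.87). Klf5 met the size on 13 and 8 counts only, with a ratio of 1.76 and an interval from 0.632 to 4.58. The other 4 members stayed within 1.5-fold. Klf9 was at 82.0 and 97.9 CPM, Klf10 at 18.8 and 17.0 CPM and Klf13 at 22.0 and 24.6 CPM. Klf15, a glucocorticoid-induced regulator of amino acid and glucose metabolism, was at 67.1 (61.5 to 73.0) and 54.2 CPM (45.8 to 63.6), a ratio of 0.808 (0.669 to 0.970).

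More aged Leydig-like cells held Klf2 and Klf6 at matched depth. With each cell thinned to 1000 counts, 9.57% of young (7.88 to 11.5) and 24.2% of aged cells (20.7 to 28.0) had a Klf2 count, and 8.74% (7.13 to 10.6) and 22.4% (19.0 to 26.1) had a Klf6 count. Unthinned, the Klf2 shares were 37.2% and 56.1%, with medians of 6938 and 4752 counts per cell, and 23 aged cells were too shallow to thin. The thinned Klf2 share of spermatocytes was 0.303% and 0.223%. Klf6 counts were found in 21.2% of the young thinned cells with a Klf2 count and 7.43% of those without. In the aged library these shares were 29.9% and 20.05%.

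The Leydig-like cells of the 2 libraries fell mostly into different clusters. Cluster 1, led by Klk1b21, Klk1b27 and Klk1b24, held 1038 young and 38 aged cells. Cluster 2, led by Fetub, Cxcl10 and Cxcl1, held 49 young and 538 aged cells. In cluster 1 alone Klf2 was at 107 CPM young and 377 (on 55 counts) aged, Klf4 at 50.7 and 158 (on 23 counts), and Klf15 at 66.8 and 20.6 (on 3 counts). Klf6 was at 104 and 123 CPM there (ratio 1.19, 0.699 to 1.89, on 18 aged counts), so its pooled difference was not seen in that cluster. In cluster 2 alone Klf2 was at 205 and 340.0 CPM (ratio 1.66, 1.29 to 2.18), Klf6 at 221 and 374 CPM (1.69, 1.32 to 2.20), and Klf4 at 78.0 and 77.8 CPM. Within the young library, Klf2 and Klf6 were thus each at a higher level in cluster 2 than in cluster 1.

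**Figure D3:**
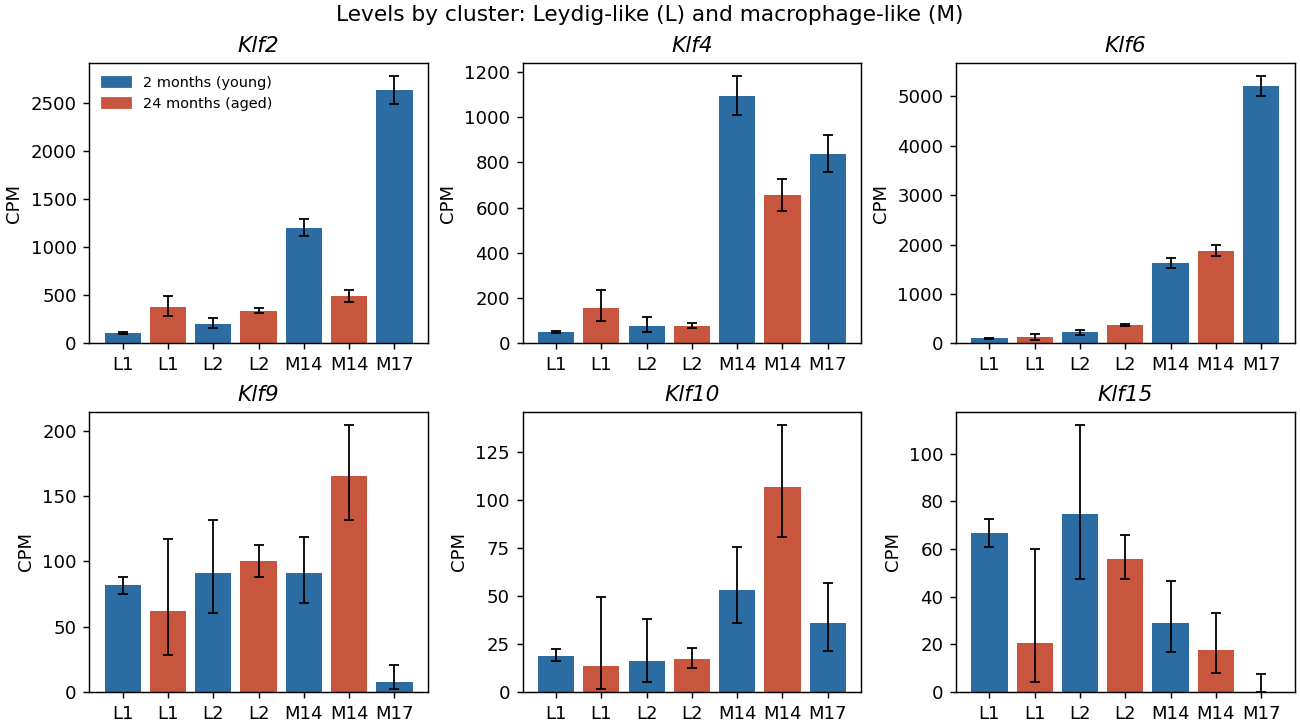
Level (CPM, linear axes from 0) of 6 members in the Leydig-like clusters 1 and 2 and the macrophage-like clusters 14 and 17, by library; bars are 1 library each and lines are exact Poisson 95% intervals. Klf6 is at 104 and 123 CPM in Leydig-like cluster 1 but at 221 and 374 CPM in cluster 2, and cluster 17 holds young cells only.

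Markers of other cell types were summed in the same cells, and their part in the Klf2 and Klf6 difference was not tested. Spermatocyte markers were at 98.4 CPM young and 116 CPM aged. All 12 macrophage markers had a count there, with a summed level of 94.6 CPM young and 57.4 CPM aged, which is 0.432% and 0.307% of the level in macrophage-like cells. At that percentage macrophage RNA would carry 14.2 and 5.76 CPM of Klf6. Fibroblast markers summed to 324 and 153 CPM (9 and 7 of 10 with a count), with Dpt at 0 in both libraries. These are 1.01% and 0.539% of the level in fibroblast-like cells. At that percentage fibroblast RNA would carry 26.2 of the 51.8 CPM of Klf4 in young and 13.7 of the 82.0 CPM in aged cells. For Klf2 it would carry 13.6 and 9.68 CPM. The part of such RNA in the Klf4 values was not tested. Endothelial markers summed to 30.6 and 28.9 CPM (4 of 8 with a count in each library), with Tie1, Emcn and Cldn5 at 0 in both. Of 22 measured genes of the immediate early and handling response, which cell dissociation also induces, 8 were higher and 2 lower. Over all genes tested in the class, 10.5% were higher and 15.4% lower. The median log2 ratio of the 22 genes was 0.38, against -0.02 over all genes tested in the class. Fos was at 1583 and 1844 CPM and Jun at 1331 and 1678 CPM, both within 1.5-fold, while Atf3 was at 58.0 and 128 CPM and Fosl2 at 14.9 and 48.7 CPM. The part of handling in the Klf2 and Klf6 values was not tested.

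Genes linked to these factors were counted in Leydig-like cells by lists chosen with earlier results of these data known. Over all 15285 genes tested in this class, 10.5% were higher and 15.4% lower. Among 9 measured genes of the other Kruppel-like and Sp factors, 2 were higher and 1 lower, and the 2 higher ones were Klf7 at 3.92 and 19.5 CPM and Klf11 at 10.1 and 20.6 CPM. Of 19 clock genes 11 were higher and none lower, among them Nr1d1, which encodes a repressor of the circadian loop, at 59.9 and 152 CPM, and Bhlhe41 at 11.2 and 35.7 CPM. The hour of dissection is not in the labels, so the part of time of day was not tested. Of 12 glucocorticoid-response genes 4 were higher and 1 lower, with Cebpb at 146 and 311 CPM and Mt1, a metallothionein gene, within 1.5-fold at 3282 and 4796 CPM. Klf9 and Klf15, which glucocorticoids induce, were both within 1.5-fold and on opposite sides of 1. Their ratios were 1.19 (1.03 to 1.38) and 0.808 (0.669 to 0.970). The part of glucocorticoids was not tested.

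In the same cells, of 7 genes of the MEK5-ERK5-MEF2 pathway, which induces Klf2 in endothelium, only Map3k3 was higher (7.58 and 13.0 CPM) and none was lower. Of 5 measured genes that Klf2 regulates in endothelium, in whichever direction, only Adm, the adrenomedullin gene, was higher (4.80 and 27.8 CPM). The adhesion gene Vcam1 was at 2795 and 3502 CPM. Of 12 TGF-beta pathway genes 4 were higher and 1 lower, where 10.5% of all genes were higher and 15.4% lower. The inhibitory Smad7 was at 1.14 and 3.25 CPM on 9 counts in each library. None of 10 corepressor genes was called, with Sin3b at 180.4 and 191 CPM. Of 6 ubiquitin ligase genes, only Fbxo32 was higher, on 30 and 16 counts.

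Macrophages of the testis lie beside the Leydig cells. In macrophage-like cells Klf9 and Klf10 were higher and Klf2 and Klf6 lower in the aged library, 2 and 2 of 7 members measured, where 25% of 11035 genes were higher and 23.0% lower. Klf2 was at 1860.1 CPM (1779.7 to 1943) young and 494 (435 to 558) aged, 3.77-fold lower (3.31 to 4.31). Klf6 was at 3276 (3169 to 3386) and 1876 CPM (1759 to 1998), 1.75-fold lower. Klf4 was at 974 and 655 CPM, a ratio of 0.672 (0.593 to 0.761) just within 1.5-fold. Klf9 was at 52.6 (39.8 to 68.1) and 165 CPM (132 to 204), and Klf10 at 45.2 and 107 CPM. Klf13 was at 71.0 and 79.7 CPM, and Klf15 at 15.7 and 17.5 CPM on 17 and 9 counts.

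These class values combine 2 clusters of unlike makeup. Cluster 17 held 89 young and no aged cells, and cluster 14 held 84 young and 130 aged cells. In cluster 17 Klf2 was at 2627 CPM (2487 to 2773), Klf6 at 5200 (5002 to 5403), Klf4 at 837 and Klf9 at 7.99. In cluster 14 alone Klf2 was at 1202 young and 494 aged CPM (ratio 0.411, 0.354 to 0.475) and Klf4 at 1092 and 655 CPM (0.5997, 0.524 to 0.685). Klf9 was at 90.9 and 165 CPM (1.82, 1.28 to 2.61) and Klf10 at 53.2 and 107 CPM (2.01, 1.27 to 3.23). Klf6 was at 1625 and 1876 CPM (1.15, 1.05 to 1.26), so within this cluster Klf6 was not lower in the aged library.

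Leydig markers were high in cluster 14, at 54.6% of their Leydig-like level in young and 47.3% in aged cells, all 12 with a count, and at 0.714% in cluster 17. At the class percentages of 29.7% and 47.3%, Leydig RNA would carry 32.8 and 162 CPM of Klf2 and 24.4 and 46.3 CPM of Klf9. For Klf15 it would carry 19.9 and 25.6 CPM, more than the 15.7 and 17.5 CPM measured. The young class percentage is lowered by cluster 17, which has no aged cells. The young carried values are therefore too low for cluster 14 alone, and the pairs do not bear on the ratios within that cluster. All 17 young Klf15 counts of the class were in cluster 14. The part of such RNA, or of doublets that were not called, in the macrophage-like values was not tested. The list counts that follow are for the pooled class, whose young cells include cluster 17, and were not taken within cluster 14. In this class 7 of 12 glucocorticoid-response genes were higher and 3 lower, where 25% of all genes were higher and 23.0% lower. Mt1 was at 1293 and 4173 CPM and Errfi1 at 16.6 and 68.0 CPM. Of 16 clock genes 9 were higher and 1 lower, with Bhlhe40 at 23.1 and 105 CPM. Among 8 other Kruppel-like and Sp factors 1 was higher, Klf11 at 14.8 and 58.3 CPM, and 5 were lower, with Klf3 at 101 and 62.2 CPM. In cluster 14 alone Klf3 was at 60.01 and 62.2 CPM, and in cluster 17 at 149.8 CPM. All 5 measured endothelial Klf2-regulated genes were higher, where 25% of all genes were, with Vcam1 at 830 and 2181 CPM. That list was not split into genes that Klf2 induces and genes that it represses, and a link to Klf2 was not tested. Vcam1 was also high in Leydig-like cells (2795 and 3502 CPM), and the part of Leydig RNA in its macrophage-like values was not tested.

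**Figure D4:**
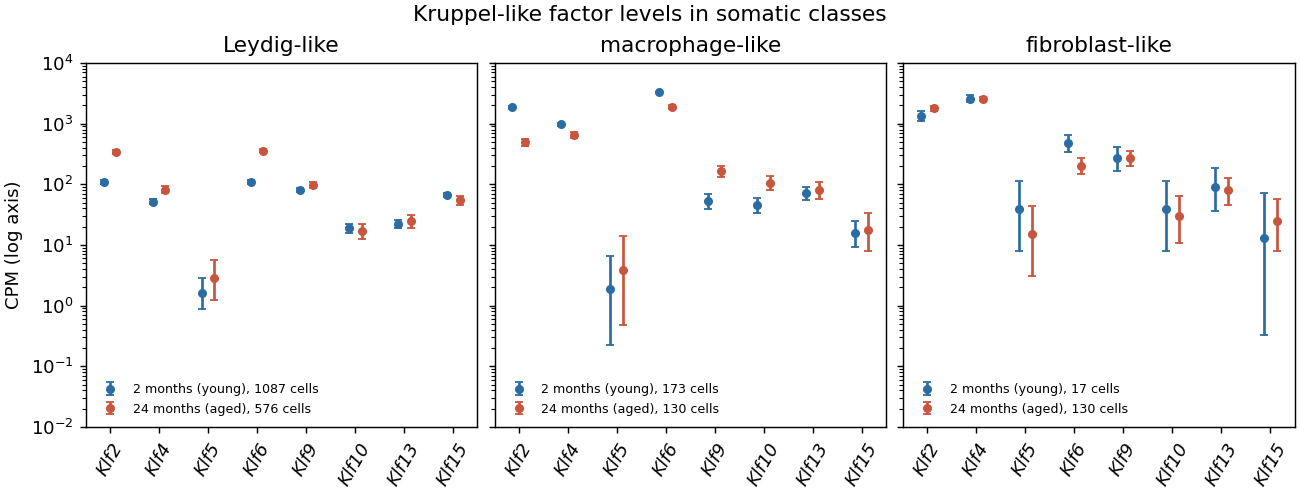
Level of the 8 members (CPM, log axis) in Leydig-like, macrophage-like and fibroblast-like cells of each library; points are 1 library each and bars are exact Poisson 95% intervals. Klf2 goes from 110.4 to 342 CPM in Leydig-like cells and from 1860.1 to 494 CPM in macrophage-like cells, and the 17 young fibroblast-like cells give wide intervals.

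Fibroblast-like cells had the highest Klf4 of any class compared, at 2588 CPM (2242 to 2972) young and 2542 (2326 to 2772) aged, a ratio of 0.982 (0.833 to 1.16). Only 17 young cells stand behind these values, and none of 5 members measured was higher and 1 was lower, where 24.8% of 5254 genes were higher and 20.6% lower. The lower member was Klf6, at 479 (337 to 660) and 204 CPM (146 to 276) on 37 and 41 counts, 2.35-fold lower (1.47 to 3.76). Klf2 was at 1346 and 1797 CPM, and Klf9 at 272 and 268 CPM, its highest level in any class compared. Of 20 immediate early and handling response genes measured there 7 were higher and 1 lower. Hspa1b, a heat shock gene, was among the higher ones at 129 and 313 CPM, and Fos was within 1.5-fold at 5279 and 7188 CPM.

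Set in order of level over the classes, Klf4 ran from fibroblast-like through macrophage-like, round spermatid-like, Leydig-like and elongating spermatid-like to spermatocyte-like cells in both libraries, and its young intervals of neighbours in that order did not overlap. Klf2 was highest in macrophage-like cells of the young and in fibroblast-like cells of the aged library, and these 2 classes led in both. Leydig-like cells came after them, above round spermatids at 88.5 and 82.0 CPM. Klf6 was led by macrophage-like cells in both, with fibroblast-like cells second in the young and Leydig-like cells second in the aged library, and was near 1 CPM in spermatocytes and round spermatids. Klf15 was highest in Leydig-like cells. Its fibroblast-like interval, on 1 young and 5 aged counts, overlapped both the Leydig-like and the macrophage-like interval in each library. Klf5 was highest in round spermatid-like cells, with the young fibroblast-like value of 38.8 CPM (8.005 to 113) resting on 3 counts.

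By Pearson's r of log2(CPM + 1) over 30 cluster-by-library profiles of at least 50 cells, among 11513 genes, the genes most like each member were as follows. The profiles share 2 libraries and differ in depth, so r is a description. Klf15 ran with Esr1 (r = 0.966), the estrogen receptor gene, and with Ndrg2 and Fgfr2. Klf6 ran with Psmb8 (0.972), an immunoproteasome subunit gene, Camk1 and Msn. Klf4 ran with Rbms1 (0.952), Slc6a6 and Rlim. Klf2 ran with Myadm (0.929), Rhoq and Zfp36l1, and Klf5 with 4930417O13Rik (0.937). Klf10 ran with Git2 (0.928) and Klf13 with Npc1 (0.928), a cholesterol transporter gene. Klf9 had no match that close, the highest being Arl5b (0.829).

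The members lie on 8 different chromosomes of GRCm38, in the GENCODE M21 annotation, and all are protein-coding. Klf2 spans chr8:72319033-72321656, Klf4 chr4:55527143-55532466 and Klf6 chr13:5861482-5870394. Klf9 (chr19:23141226-23168134) contains the microRNA gene Mir1192 on its own strand. Klf13 (chr7:63886351-63938915) overlaps Gm27252 and E030018B13Rik on the opposite strand, and whether counting used strand is not given in the sources used here, so Klf13 counts are uncertain. The other members overlap no annotated gene.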

How the data were processed

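The authors deposited raw counts, whole numbers per gene and cell, in 1 table per library. Cell Ranger 2.11 and the mm10 build (GRCm38) stand in the submitters' processing notes, while the header of the aged table names BD Rhapsody pipeline 1.7.1 and STAR 2.5.2b. How cells were called, and whether reads or molecules were counted, is not given in the sources used here. The tables held 2771 young cells (53413783 counts, lowest cell 3215) and 6823 aged cells (66390904 counts, lowest cell 186). They share 35 cell index values. Genes without a column in 1 of the tables were set to 0 in it.

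Cells were kept at 500 or more counts, 200 or more genes and no more than 25% of counts from mitochondrial genes, and doublets called by scrublet in scanpy 1.11.5 were removed (38 young and 121 aged). The cells of both libraries were then clustered jointly, with no batch correction, on 2000 variable genes and 40 components (15 neighbours, leidenalg 0.10.2, resolution 1, seed 1). A cluster was named by its mean marker z-score, at 0.4 or more with at least 3 markers up. It was left unnamed if it was shallow with none of its own markers among its 10 leading genes, if another class led its 10 leading genes, or if the best classes lay within 0.15. The limit of 0.4 and the rule on shallow clusters were chosen with the clusters in view. Counts were summed per class and library, and log2 ratios used 0.5 added to each count. Ratio intervals were run on simulated Poisson counts, the model they assume, for Leydig-like and germ cell classes only. That run cannot show how the intervals cover spread between cells or libraries, because the simulated counts held none.

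The members, gene lists and rules were chosen with earlier results of these data known. All members were named, and of each list the 2 most abundant genes and the 2 furthest from equality, of which the text gives a part. Alternatives changed the cell filter, doublets, resolution, naming, depth, scaling, free RNA, count minimum and clusters. Single clusters of classes other than Leydig-like, and leaving out shared cell index values, were alternatives chosen after seeing the data. Of the gene columns, 98.4% were found by name in GENCODE M21.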

Additional observations from a re-analysis of the deposited data

Results flagged for a closer look

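Klf2, Klf6 and Klf9 had aged over young ratios that lay on opposite sides of 1 in different cell classes, beyond 1.5-fold and with intervals that exclude 1. With 1 library per age the difference between classes was not tested. For Klf2 the ratio was 3.098 in Leydig-like, 0.540 in spermatocyte-like and 0.265 in macrophage-like cells. Within the macrophage-like cluster 14 it was 0.411, and within the Leydig-like clusters 1 and 2 it was 3.54 and 1.66. The spermatocyte-like ratio of Klf2 rests on 53 counts per library, at 2.47 and 1.33 CPM. Leydig RNA at its marker percentage would carry 1.04 and 3.70 CPM there, and its part was not tested. For Klf6 the ratio was 3.328 in Leydig-like, 0.572 in macrophage-like and 0.425 in fibroblast-like cells, while within cluster 14 it was 1.15 and within the Leydig-like clusters 1 and 2 it was 1.19 and 1.69. For Klf9 the ratio was 3.141 in macrophage-like and 0.627 in spermatocyte-like cells, while within the macrophage-like cluster 14 it was 1.82 and within the spermatocyte-like cluster 0 it was 1.02.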

How the results depend on the processing

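No paired analysis was possible because each age has 1 library, and for the same reason no replicate could be left out. Of 476 values of single members under the alternatives, 405 moved by less than their counting interval, 58 moved by more and 13 turned direction as called values. Of 178 counts of members, 136 stayed within 1.5 times. Leaving out the cells whose index occurs in both files, 35 young and 32 aged, moved none of these counts or values beyond those limits. Scaling by the median ratio over genes shifted macrophage-like log2 ratios by 0.17 and no other class by over 0.1.

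In Leydig-like cells the count of higher members was 2 with doublets kept, with cells thinned to 1000 counts, in cluster 1 alone and in cluster 2 alone, and 3 members were lower in cluster 1. The Klf4 log2 ratio was -0.030 in cluster 2 alone. Over 13 alternatives the log2 ratio of Klf2 lay between 0.72 and 1.83 and that of Klf6 between 0.29 and 1.86. In spermatocyte-like cells 2 members were lower with doublets kept, with classes from the own marker score of each cell, with free RNA subtracted and in cluster 6 alone. There 1 was lower with thinning and in clusters 0 and 7 alone, and 1 was higher with thinning, with no minimum of counts and in clusters 3 and 6 alone. The Klf9 log2 ratio was 0.031 in cluster 0 and 0.29 in cluster 3, and that of Klf13 was 1.32 in cluster 6.

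In round spermatid-like cells 1 member was higher with the mean of cell CPM, with free RNA subtracted and in cluster 10, and 2 in cluster 12. There 1 was lower with free RNA subtracted and in clusters 10 and 11, and 2 in cluster 8. In elongating spermatid-like cells the count of higher members was 1 with at most 10% mitochondrially encoded counts, with the lowest young total as minimum in both libraries and with no minimum of counts, 2 with doublets kept and 3 with own marker scores. The count of lower members was 1 with at most 10% mitochondrially encoded counts, with own marker scores and at resolution 2, and 0 with the lowest young total as minimum, with thinning and with a minimum of 50 counts. The Klf2 log2 ratio there was 0.61 with at most 10% mitochondrially encoded counts, 0.80 with the lowest young total, 1.11 with doublets kept and 1.68 with own marker scores, and that of Klf5 was 0.45, 0.21, 0.13 and 1.0. In macrophage-like cells 1 member was lower with the mean of cell CPM, and the Klf6 log2 ratio was 0.21 in cluster 14 alone. In fibroblast-like cells 2 members were lower with the lowest young total, with own marker scores and with no minimum of counts, and 2 were higher with own marker scores and 1 with thinning and with no minimum. For these changes the cause was not tested. The few counts in elongating spermatid-like and fibroblast-like cells limit what can be read from them.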
